A study of Mus musculus with 72 samples.

Results

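The livers of mice on an arrhythmic feeding paradigm were compared with those of mice on a night-restricted one, at a single time of day. That time was zeitgeber time 10 (ZT10, 10 h into the 12 h light phase that alternates with 12 h of darkness). The comparison holds 9 of the series' 72 libraries: 3 from arrhythmic feeding and 3 from arrhythmic feeding in animals that the labels say had not adapted in full (here, incompletely adapted), 6 libraries in all, against 3 from night-restricted feeding. They were chosen by paradigm and time alone. All groups were wild-type male C57BL/6J mice, 43 to 49 days old at the start, with water at all times; no transgene, drug or surgery is named. With food limited to the night, night-restricted animals are late in their daily fast at ZT10, but neither the hours of food access nor the criterion for adaptation is stated in the labels. The series title weighs feeding rhythm against the liver clock as a driver of rhythmic expression, and this comparison holds the hour of the light cycle fixed while the feeding schedule differs.

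The liver switches between a fed and a fasted state. After a meal, insulin and glucose turn on genes that trap glucose, store it as glycogen and turn the excess into fatty acid, and sterol-sensing factors set cholesterol synthesis. As a fast goes on, glucagon, glucocorticoids and the fatty acid receptor PPARA turn on lipolysis, fatty acid oxidation, ketone body production and glucose output. The same tissue holds a molecular clock of activators (BMAL1, encoded by Arntl, with CLOCK) and their repressors (the PER and CRY proteins and REV-ERBα), which runs on through fed and fasted hours and also drives metabolic genes.

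Total counts ran from 4342026 to 7919786 per library (median 6196559), lowest and highest both under night-restricted feeding, and no 2 libraries were identical. Levels are in CPM, a gene's counts scaled to its library's total. A gene was called at a false discovery rate (FDR) of 0.05 by edgeR's quasi-likelihood test, with the Benjamini-Hochberg adjusted p taken over 12712 genes, and differences are fitted log2 fold changes ± standard error (SE). The labels do not say that replicates are separate animals, so the p-values may rest on technical spread alone. All 5 hepatocyte markers were present. The GC slope of a library, the trend of its log2 deviations against the GC percentage of 3′ transcript ends, ran from -0.385 to 0.213 log2 units per 10 percentage points in the arrhythmic groups and from -0.0909 to 0.0715 under night-restricted feeding (exact permutation p = 0.286, two-sided). On the first principal component, with 65.4 percent of the variance, arrhythmic replicate 2 (-34.7) and night-restricted replicate 2 (-32.2) stood apart. The other 7 libraries lay between -10.5 and 26.0. The 2 libraries that stood apart had the highest GC slopes, 0.213 and 0.0715. Incompletely adapted replicate 1, at 26.0, had the lowest, -0.385. A higher GC slope mostly went with a lower position on this component, and the relation was not tested. Summed pericentral hepatocyte markers, all 8 present, spanned 2561 to 3679 CPM against 3267 to 3967 (exact permutation p = 0.0476, 0.286 after Benjamini-Hochberg adjustment over 16 measures). Cyp2e1 alone made up a large part of that sum, with means of 1518 CPM in the arrhythmic groups and 2286 CPM under night-restricted feeding. Oat, another of these markers, went the other way, at 485 against 286.7 CPM, so the sum does not show a shared fall. T and NK cell markers spanned 1.99 to 3.39 CPM against 3.28 to 4.61, with the same p. All 8 of them were present, but only 1 passed the low count filter. Cholangiocyte markers (6 of 7 present) spanned 13.7 to 19.6 CPM against 11.4 to 15.3, and B and plasma cell markers (7 of 7 present) 6.61 to 19.9 CPM against 3.41 to 8.55, both at an exact permutation p of 0.0714 (0.286 adjusted). That filter was passed by 3 of the cholangiocyte and 4 of the B and plasma cell markers. None of the 16 measures passed the adjustment, and the part of these markers in the results was not tested. In bulk tissue, fewer cells of a type and less RNA per cell cannot be told apart.

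Pooling both arrhythmic groups, 46 genes differed from night-restricted feeding at ZT10, 0.362 percent of the genes tested. Of these, 17 were higher (0.134 percent) and 29 lower (0.228 percent). The higher genes were led by fed-state genes, among them the glycogen regulator Ppp1r3b and the fatty acid synthesis genes Fasn, Acly, Elovl6 and Mid1ip1. Among the lower genes were the metallothioneins Mt1 and Mt2, the lipase gene Pnpla2, the fatty acid oxidation gene Cpt1a and the insulin signalling inhibitor Trib3. At an unadjusted p under 0.05 there were 446 genes higher and 626 lower. The difference was positive for 6125 of the 12712 genes and negative for 6587. The median log2 difference over all genes was -0.02, with a median SE of 0.32. The 6 arrhythmic libraries all lay above the 3 night-restricted ones for 167 genes (1.31 percent) and all below for 309 (2.43 percent). These shares are the background for the counts in each gene list below. Of the 46 called genes, 40 did not overlap between the groups. Most called genes described below were picked partly for this, so their lack of overlap is no separate result.

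The count of called genes changed with the library left out and with the way the data were fitted. Without night-restricted replicate 2 it was 7, among them Ppp1r3b, Npc1, Trib3 and Fbxo21; without night-restricted replicate 1 it was 14. Without incompletely adapted replicate 2 or 3 it was 24 or 26. Fitted to the 9 ZT10 libraries alone it was 0, while DESeq2 called 56. With the GC slope as a covariate it was 98, with 47 higher, 51 lower and 45 of the 46 among them.

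**Figure D1:**
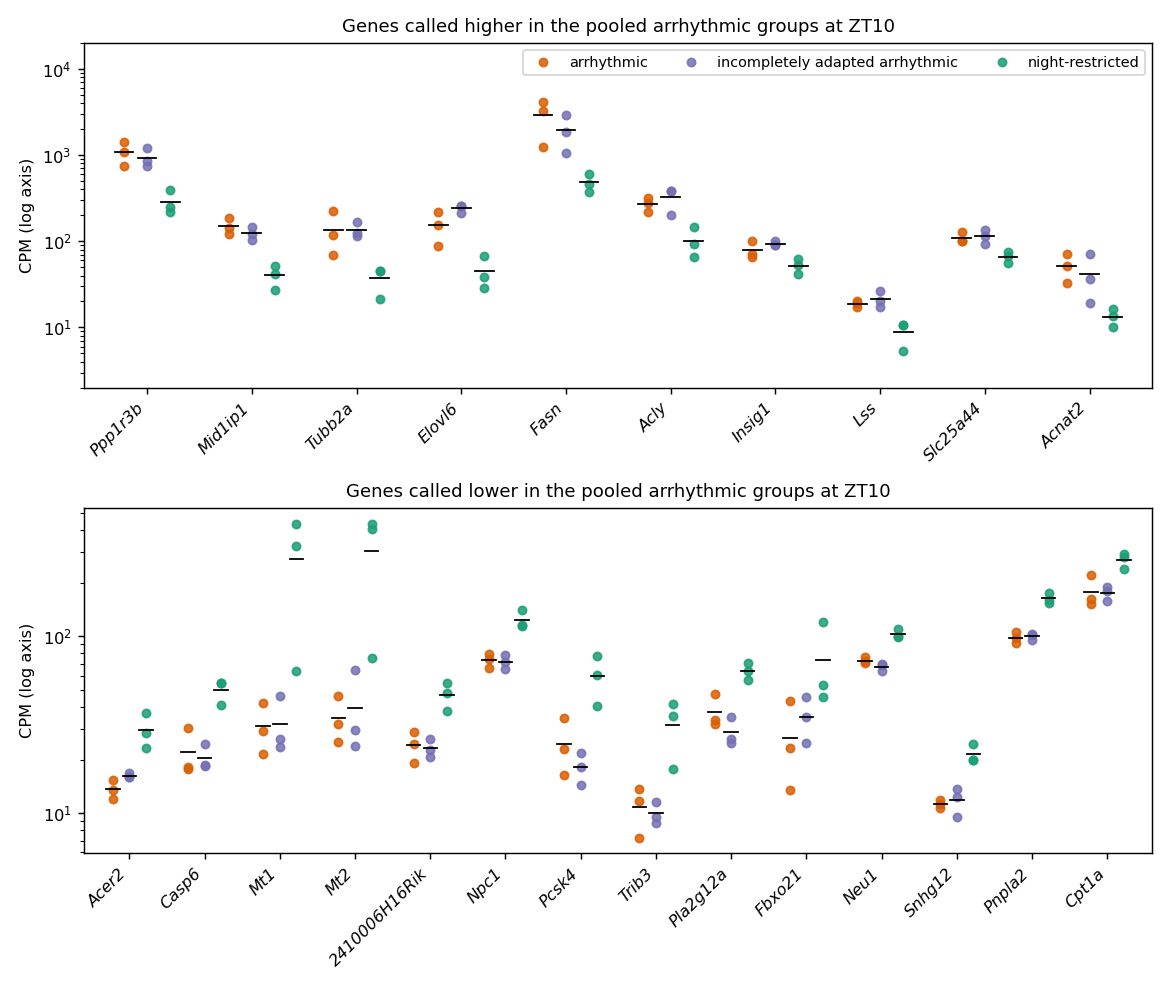
Level of 10 genes called higher and 14 called lower, in CPM on a log axis, with 1 point for each library at ZT10 and a bar for the mean of each group of 3. The points of the 6 arrhythmic and incompletely adapted libraries lie on 1 side of the 3 night-restricted ones for each gene shown. All but Pnpla2 and Cpt1a were picked partly for this lack of overlap, so it is no separate result. Mt1 and Mt2 have a wide night-restricted spread.

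A gene of glycogen storage gave the smallest p among the fed-state genes named here. Ppp1r3b (ENSMUSG00000046794.9, GRCm38 chromosome 8, 35375739 to 35388139) encodes the liver subunit that brings a phosphatase to glycogen and so activates glycogen synthase. Its level was 1400, 1087 and 738 CPM under arrhythmic feeding, 740.4, 847 and 1193 CPM in the incompletely adapted group and 217, 396 and 248 CPM under night-restricted feeding. All 6 arrhythmic libraries were above the highest night-restricted one. The means differed 3.48-fold, and the fitted log2 difference was 1.76 ± 0.31 (adjusted p = 0.00189). Of the 25 tested genes for glycogen and glycolysis 2 were called higher, Ppp1r3b among them, and 0 were lower. At an unadjusted p under 0.05 there were 4 higher and 2 lower, and the list's median of 0.11 stood beside -0.02 for all genes. The 2 genes below that p on the lower side were Gys2, the liver glycogen synthase itself, at -0.59 ± 0.21 (adjusted p = 0.363), and Ppp1r3c, another glycogen-targeting subunit, at -0.72 ± 0.33 (adjusted p = 0.545), neither of them called and both overlapping between the groups. Without night-restricted replicate 2, 1 of the list was called.

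Fatty acid synthesis was the list with the most called genes. Of 29 tested lipogenic genes 4 were higher (Fasn, Elovl6, Acly and Mid1ip1) and 0 lower, with a list median of 0.24. Among all genes tested, 0.134 percent were called higher. At an unadjusted p under 0.05 there were 11 higher and 1 lower. Fasn (ENSMUSG00000025153.9, GRCm38 chromosome 11, 120805846 to 120824547), the fatty acid synthase, stood at 3244, 4123 and 1247 CPM under arrhythmic feeding, 1052, 1841 and 2886 CPM in the incompletely adapted group and 464, 373 and 603 CPM under night-restricted feeding. The lowest arrhythmic library was still above the highest night-restricted one, though the 6 spread widely. The means differed 5-fold (log2 2.30 ± 0.52, adjusted p = 0.0211). Acly, which makes the acetyl-CoA for fatty acid synthesis from citrate, had 321, 278 and 219 CPM under arrhythmic feeding, 204, 382 and 382 CPM in the incompletely adapted group and 91.9, 65.7 and 145 CPM under night-restricted feeding. Its groups did not overlap either, and the log2 difference was 1.55 ± 0.36 (adjusted p = 0.0286). Elovl6, an elongase of long-chain fatty acids, had 217, 87.2 and 152 CPM under arrhythmic feeding against 38.9, 28.9 and 68.1 CPM under night-restricted feeding, and the incompletely adapted libraries were at 214, 256 and 255 CPM. Arrhythmic replicate 2 was the closest to the night-restricted range (log2 2.05 ± 0.43, adjusted p = 0.0105). Mid1ip1, a small activator of acetyl-CoA carboxylase, was at 187, 122 and 144 CPM under arrhythmic feeding, 147, 104 and 121 CPM in the incompletely adapted group and 51.6, 27.4 and 41.6 CPM under night-restricted feeding, with no overlap and a log2 difference of 1.74 ± 0.33 (adjusted p = 0.00497).

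The lipogenic genes did not move as a block. Scd1, the stearoyl-CoA desaturase and by level the most abundant of those named, had 7363, 10410 and 7601 CPM under arrhythmic feeding, 8706, 10210 and 9118 CPM in the incompletely adapted group and 10080, 8731 and 8231 CPM under night-restricted feeding. The groups overlapped and the log2 difference was -0.04 ± 0.30 (adjusted p = 0.978). Srebf1, the insulin-responsive transcription factor of lipogenesis, was at 65.8, 22.4 and 97.6 CPM under arrhythmic feeding, 71, 47.4 and 68.6 CPM in the incompletely adapted group and 14.1, 9.09 and 30.0 CPM under night-restricted feeding. Arrhythmic replicate 2 lay within the night-restricted range, and the difference of 1.77 ± 0.71 was not called (adjusted p = 0.442). Of the 29 genes, 0 were called without night-restricted replicate 2, 1 without night-restricted replicate 1, 2 without arrhythmic replicate 2 or without incompletely adapted replicate 3, and 7 when the GC slope was a covariate. Fasn was also lost without night-restricted replicate 3 (adjusted p = 0.061), and Acly without arrhythmic replicate 1 (0.0565) or incompletely adapted replicate 2 (0.0662).

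Most cholesterol synthesis and uptake genes had a positive difference, and few were called. Of 27 tested members 22 had a positive difference, beside 6125 of all 12712 genes. Called higher were 2 (Insig1 and Lss), beside 0.134 percent of all genes, and 0 were called lower. At an unadjusted p under 0.05, 8 were higher, and the list median was 0.36. Insig1, which holds the sterol-sensing machinery in the ER and is itself sterol-regulated, had 70.4, 65.3 and 99.4 CPM under arrhythmic feeding, 90.4, 91 and 99.7 CPM in the incompletely adapted group and 52.3, 41.8 and 61.5 CPM under night-restricted feeding. The ranges did not touch, at a log2 difference of 0.69 ± 0.16 (adjusted p = 0.0299). Lss, the enzyme that closes the sterol ring to form lanosterol, was at 20.5, 19.1 and 17.1 CPM under arrhythmic feeding, 26.3, 17.3 and 20.4 CPM in the incompletely adapted group and 10.6, 5.3 and 10.8 CPM under night-restricted feeding (log2 1.16 ± 0.28, adjusted p = 0.0391). The early enzyme gene Fdps, at 0.78 ± 0.29, did not overlap between the groups and was not called (adjusted p = 0.374). Leaving out any 1 of the 9 libraries left 0 or 1 called member. Insig1 was lost without arrhythmic replicate 3, incompletely adapted replicate 2 or 3 or night-restricted replicate 1 or 2 (adjusted p from 0.0522 to 0.65), and Lss without any library except arrhythmic replicate 3 and incompletely adapted replicate 2 (0.0621 to 0.766).

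The promoter of Insig1 is shown because it was the sterol gene called both here and against the other times of day. It holds an E-box (CACGTG, its own reverse complement), a sequence that clock activators and several metabolic factors can bind, starting 101 bases before the RefSeq start. In the promoters of the tested genes with a RefSeq entry (9289 symbols; 250 bases before to 50 after the start), 11.9 percent held at least 1 E-box. The 46 bases around it (GRCm38.p6 chr5:28071291-28071336, plus strand, E-box in capitals) read as follows.
Insig1: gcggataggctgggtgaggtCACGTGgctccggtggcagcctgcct
The sterol element core TCACCCCAC, searched on both strands, was in 0 of the 11 promoters found for genes called higher and in 0.743 percent of all of them. At so low a share, 0 among 11 promoters cannot show that sterol elements are lacking. A match describes these letters only.

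Other genes called higher had varied roles. Slc25a44, a mitochondrial carrier of branched-chain amino acids, differed by 0.73 ± 0.18 (adjusted p = 0.0393) and Acnat2, an acyltransferase, by 1.77 ± 0.44 (adjusted p = 0.0492). Slc25a44 was lost without any library except arrhythmic replicates 2 and 3 and incompletely adapted replicate 1, and Acnat2 without any except arrhythmic replicate 3 and incompletely adapted replicate 1 (adjusted p up to 0.352 and 0.252). Another 5, named here after their values were seen because they were below a mean of 10 CPM or overlapped, were Celsr1, Slc2a4, Gm36028, BC049987 and Rpn1. Slc2a4, the insulin-responsive glucose transporter best known from muscle and fat, had 6.86 ± 2.33 CPM (SD, n = 6) in the arrhythmic groups and 0.955 ± 0.168 CPM (SD, n = 3) under night-restricted feeding.

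Among cytoskeletal genes a beta-tubulin was called higher. Of 12 tubulins and actins 1 was called higher (Tubb2a), beside 0.134 percent of all genes, and 0 lower. At an unadjusted p under 0.05, 4 were higher. For 5 of the 12 all arrhythmic libraries lay above the night-restricted ones, beside 1.31 percent of all genes, and the median was 0.54. Tubb2a had 222, 118 and 69.5 CPM under arrhythmic feeding, 115, 124 and 168 CPM in the incompletely adapted group and 45.6, 21.6 and 45.2 CPM under night-restricted feeding. Every arrhythmic library was above every night-restricted one (log2 1.85 ± 0.38, adjusted p = 0.0101). The alpha-tubulin genes Tuba1c (0.96 ± 0.34, adjusted p = 0.356) and Tuba4a (0.73 ± 0.28, adjusted p = 0.384) and the beta-tubulin gene Tubb4b (0.82 ± 0.33, adjusted p = 0.447) were not called, although none overlapped. Without night-restricted replicate 2 Tubb2a was not called (adjusted p = 0.304). With the GC slope as a covariate 4 of the 12 were called, with log2 differences of 1.26 for Tuba1c, 0.97 for Tuba4a and 1.10 for Tubb4b. Tubulin genes are near-identical over parts of their sequence, so the split of reads between them is uncertain. The Tubb2a promoter holds a full cAMP response element (TGACGTCA, its own reverse complement; in 3.5 percent of all promoters) starting 59 bases before the start. It is shown as the single such match among the promoters of called genes (GRCm38.p6 chr13:34078040-34078087, minus strand, element in capitals).
Tubb2a: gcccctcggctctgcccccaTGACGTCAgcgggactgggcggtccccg

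Among the named genes called lower, the largest differences were in the metallothioneins, zinc-binding proteins whose genes respond to zinc, glucocorticoids and fasting. Mt1 (ENSMUSG00000031765.8, GRCm38 chromosome 8, 94179082 to 94180327) had 42, 29.2 and 21.6 CPM under arrhythmic feeding, 23.6, 46 and 26.2 CPM in the incompletely adapted group and 326, 432 and 63.7 CPM under night-restricted feeding. All 6 arrhythmic libraries were below the lowest night-restricted one, but night-restricted replicate 3 stood far below the other two of its group. The means differed 8.71-fold and the log2 difference was -3.18 ± 0.59 (adjusted p = 0.00313). Its neighbour Mt2 (ENSMUSG00000031762.7, GRCm38 chromosome 8, 94172664 to 94173568) followed the same order, with 46, 31.7 and 25.3 CPM under arrhythmic feeding, 29.3, 64 and 23.9 CPM in the incompletely adapted group and 405, 431 and 75 CPM under night-restricted feeding (log2 -3.11 ± 0.64, adjusted p = 0.0101). Without night-restricted replicate 2 neither was called (adjusted p = 0.1 and 0.16), and without night-restricted replicate 1 Mt2 was not (0.0976). The 10 tested genes of the glucocorticoid receptor and its targets held 0 called in either direction, 0 at an unadjusted p under 0.05 and a median of -0.03. In the wider list of 15, with metallothioneins and zinc transporters, edgeR and DESeq2 each called 2 lower. Slc30a10, a metal transporter gene of the same list, was at 0.81 ± 0.23 (adjusted p = 0.16).

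The 150 bases before the RefSeq start of Mt1 and Mt2 are shown because these 2 neighbours had the largest fall among the named genes. For both genes the RefSeq start is not the first base of the gene span given above. The metal response element core, searched as TGCACNC or TGCGCNC on both strands, is in capitals. It was chosen after the data had been seen and occurs at least once in 33.9 percent of all promoters over the 250 bases upstream. That window is longer than the 150 bases printed, so the share is no direct background for the matches in them. Within these 150 bases Mt1 (GRCm38.p6 chr8:94178939-94179088, plus strand) holds 1 match and Mt2 (GRCm38.p6 chr8:94172468-94172617, plus strand) holds 2. Bases after the RefSeq start were left out of this search, so these are not the numbers of such elements in the whole promoters.
Mt1: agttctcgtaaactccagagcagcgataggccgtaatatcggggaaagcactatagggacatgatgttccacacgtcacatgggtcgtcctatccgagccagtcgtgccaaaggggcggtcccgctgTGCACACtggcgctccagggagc
Mt2: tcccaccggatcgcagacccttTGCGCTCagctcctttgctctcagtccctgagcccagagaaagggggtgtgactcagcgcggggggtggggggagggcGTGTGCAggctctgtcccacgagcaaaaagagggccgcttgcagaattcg

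Fat mobilisation genes were lower at 2 steps. Pnpla2, which encodes the lipase that takes the first fatty acid off stored triglyceride, had 105, 97.5 and 91.5 CPM under arrhythmic feeding, 102, 94.7 and 102 CPM in the incompletely adapted group and 176, 161 and 153 CPM under night-restricted feeding. These ranges were narrow and well apart, at a log2 difference of -0.76 ± 0.17 (adjusted p = 0.0241). It was the only 1 of 16 lipid droplet genes called, and the list had 5 members lower and 0 higher at an unadjusted p under 0.05, with a median of -0.31. Cpt1a, the carnitine transferase that admits fatty acids to mitochondria, had 162, 152 and 223 CPM under arrhythmic feeding, 190.4, 180.4 and 159 CPM in the incompletely adapted group and 291, 281 and 239.7 CPM under night-restricted feeding. Its groups did not overlap, but the call was marginal (-0.65 ± 0.16, adjusted p = 0.0423) and ended without any 1 library except arrhythmic replicate 3 (adjusted p from 0.0151 to 0.62 over 17 alternatives). The Pnpla2 call ended without either night-restricted replicate 1 or 2, arrhythmic replicate 3, or any 1 incompletely adapted library (0.00706 to 0.335 over the same alternatives).

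The wider PPARA programme was not called. Of its 46 tested members Cpt1a was the only 1 lower and 0 were higher, 6 were lower and 1 higher at an unadjusted p under 0.05, and the median was -0.04. Cyp4a14, an omega-hydroxylase often used as a readout of PPARA, had 3643, 2836 and 2372 CPM under arrhythmic feeding, 2246, 3485 and 2134 CPM in the incompletely adapted group and 3047, 4298 and 2305 CPM under night-restricted feeding (-0.26 ± 0.33, adjusted p = 0.841); it has near-identical family members. Angptl4, a secreted lipase inhibitor, was at -0.95 ± 0.37 (adjusted p = 0.417), with arrhythmic replicate 2 inside the night-restricted range. The fasting hormone gene Fgf21 stayed between 0 and 1.59 CPM in all 9 libraries and Pdk4, which restrains glucose oxidation, between 0 and 0.332 CPM, too low to compare.

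Gluconeogenic genes showed no call in either direction. Of 18 tested members 0 were called by edgeR or DESeq2, 2 were higher and 2 lower at an unadjusted p under 0.05, and the median was -0.06. G6pc, the last enzyme of glucose output, had 84, 40.5 and 74.4 CPM under arrhythmic feeding, 70.2, 77.4 and 50.5 CPM in the incompletely adapted group and 25.6, 29.2 and 36.6 CPM under night-restricted feeding. The night-restricted libraries were all lower, yet the difference of 1.07 ± 0.37 was not called (adjusted p = 0.319). Pck1, which commits carbon to gluconeogenesis, was at 599.6, 211 and 2440 CPM under arrhythmic feeding, 2280, 1336 and 1289 CPM in the incompletely adapted group and 913, 322 and 951 CPM under night-restricted feeding, overlapping widely. Its difference was 0.81 ± 0.86 (adjusted p = 0.808) and became -0.49 with the GC slope as a covariate. Trib3, a pseudokinase that inhibits AKT in insulin signalling and is also a target of the integrated stress response, was lower, with 7.27, 11.6 and 13.7 CPM under arrhythmic feeding, 8.77, 9.52 and 11.6 CPM in the incompletely adapted group and 41.2, 17.8 and 35.5 CPM under night-restricted feeding. Night-restricted replicate 2 was the lowest of its group but still above every arrhythmic library (-1.61 ± 0.33, adjusted p = 0.0101). It was the single member called among 16 insulin and FOXO genes and among 12 integrated stress response genes, and its call ended without night-restricted replicate 1 (adjusted p = 0.202) or 3 (0.0514). Igfbp1, an insulin-repressed FOXO target, was at -0.65 ± 0.49 (adjusted p = 0.742).

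**Figure D2:**
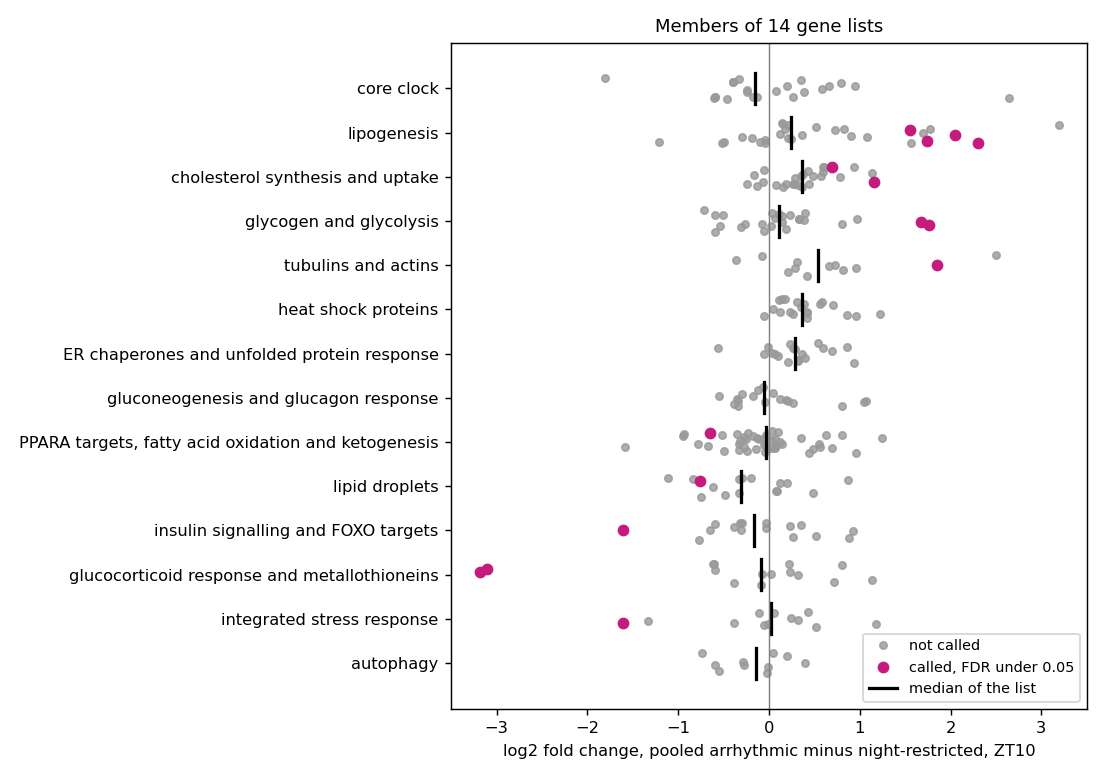
Log2 fold change of every tested member of 14 gene lists, pooled arrhythmic minus night-restricted at ZT10, with called members coloured and a black bar at each list's median. The medians of the tubulin (0.54), heat shock (0.37) and cholesterol (0.36) lists lie to the right of 0 and that of the lipid droplet list (-0.31) to the left, while most members of every list are not called.

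The core clock genes held no call. Of 22 tested members 0 were called by edgeR or DESeq2, 2 were higher and 1 lower at an unadjusted p under 0.05, and the median was -0.16. The 2 higher were Arntl and Rora (0.79 ± 0.37, adjusted p = 0.555). The lower was Hlf (-0.40 ± 0.15, adjusted p = 0.363), which overlapped between the groups. Tef, at -0.40 ± 0.25 (adjusted p = 0.686), did not overlap and was not called. Arntl, which encodes the activator BMAL1, was near its daily low, with 1.98, 0.338 and 0.968 CPM under arrhythmic feeding, 0.797, 0.968 and 1.83 CPM in the incompletely adapted group and 0.23, 0.126 and 0.161 CPM under night-restricted feeding. Its libraries did not overlap, but each night-restricted value is 1 count, so that the fitted difference of 2.64 ± 1.14, not called (adjusted p = 0.504), depends on the prior count. Dbp, a clock-driven transcription factor, had 37.4, 90.1 and 50.8 CPM under arrhythmic feeding, 106, 77 and 70.6 CPM in the incompletely adapted group and 136, 47.5 and 109.7 CPM under night-restricted feeding. Nr1d1, the REV-ERBα gene, had 7.27, 19.9 and 14.2 CPM under arrhythmic feeding, 8.13, 7.74 and 16.1 CPM in the incompletely adapted group and 15.2, 11.5 and 28.9 CPM under night-restricted feeding. Both overlapped, at -0.46 ± 0.39 (adjusted p = 0.759) and -0.61 ± 0.47 (adjusted p = 0.744). The repressors Per1 (-0.60 ± 0.34, adjusted p = 0.65), Per2 (0.08 ± 0.44, adjusted p = 0.97) and Cry1 (0.35 ± 0.33, adjusted p = 0.793) overlapped as well. The SEs of Arntl, Dbp, Nr1d1, Per1, Per2 and Cry1 ran from 0.33 to 1.14. Differences larger than their own SE, as for Arntl, Per1 and Nr1d1, were still not called. Rgs16, a G protein regulator that responds to fasting, was at -1.21 ± 0.62 (adjusted p = 0.599).

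**Figure D3:**
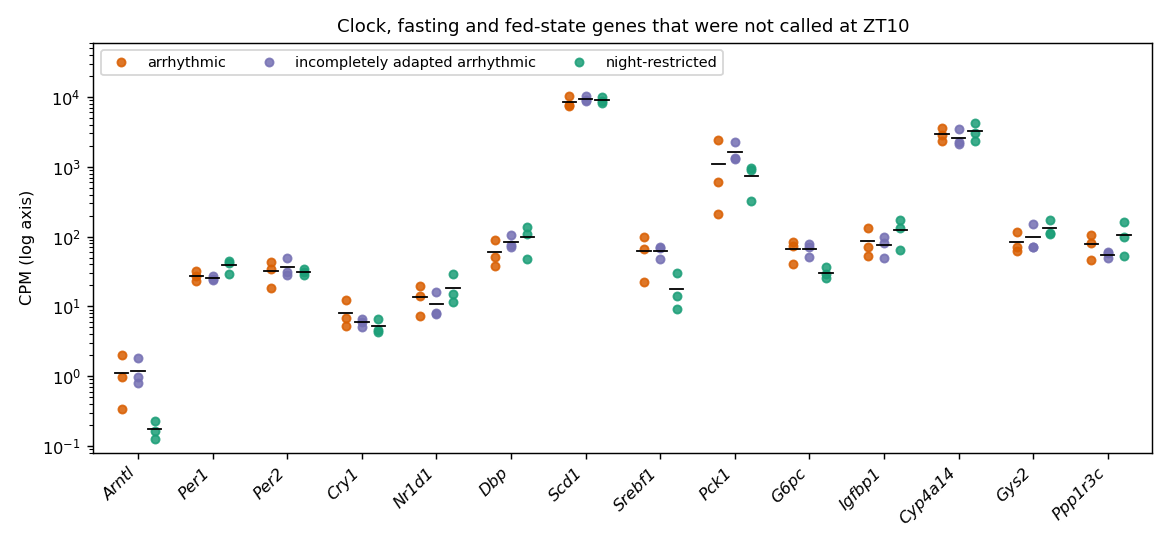
Level of 14 clock, fasting and fed-state genes that were not called, in CPM on a log axis, with 1 point for each ZT10 library and a bar for the mean of each group of 3. Scd1, Cyp4a14, Per2 and Cry1 overlap across the 3 groups, whereas Arntl and G6pc are apart with the night-restricted libraries lowest.

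Heat shock genes leaned upward without a call. Of 20 tested members 19 had a positive difference, beside 6125 of all 12712 genes, and the median was 0.37. At an unadjusted p under 0.05, 4 were higher and 0 lower, beside 446 and 626 of all genes. EdgeR called 0 and DESeq2 1. Hsp90aa1, the inducible HSP90, had 154, 68.3 and 112 CPM under arrhythmic feeding, 95.8, 194 and 187 CPM in the incompletely adapted group and 45.8, 48.5 and 72.9 CPM under night-restricted feeding. Arrhythmic replicate 2 fell within the night-restricted range (1.22 ± 0.35, adjusted p = 0.136). Hspa4l, an exchange factor for HSP70, was at 0.85 ± 0.23 (adjusted p = 0.105) and the HSP90 cochaperone gene Chordc1 at 0.71 ± 0.25 (adjusted p = 0.356). A heat shock element (GAANNTTC, its own reverse complement) was in the promoters of 10 of the 16 members with a RefSeq entry, against 7.06 percent of all genes. The ER chaperone and unfolded protein response list had 16 of 19 members positive, a median of 0.29 and 0 called by either tool, with 1 higher and 1 lower at an unadjusted p under 0.05.

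Several genes called lower had roles outside these lists. Acer2 (ENSMUSG00000038007.14, GRCm38 chromosome 4, 86874396 to 86934822), a Golgi ceramidase, had 15.4, 12 and 13.6 CPM under arrhythmic feeding, 15.9, 16 and 16.8 CPM in the incompletely adapted group and 28.6, 36.9 and 23.4 CPM under night-restricted feeding. The 6 arrhythmic libraries were tightly grouped and all lower (-1.04 ± 0.18, adjusted p = 0.00189). Npc1, the cholesterol exporter of lysosomes, had 66.1, 73.9 and 79.4 CPM under arrhythmic feeding, 65.2, 71.8 and 78.6 CPM in the incompletely adapted group and 116, 114 and 141 CPM under night-restricted feeding (-0.80 ± 0.16, adjusted p = 0.00576). Neu1, a lysosomal sialidase, had 76.2, 72.1 and 70.5 CPM under arrhythmic feeding, 69.4, 63.7 and 68.5 CPM in the incompletely adapted group and 110.5, 99.8 and 99.3 CPM under night-restricted feeding (-0.59 ± 0.13, adjusted p = 0.0196). Neither overlapped, and both differences were under 1 log2 unit. Casp6, a caspase, was lower by 2.33-fold (-1.27 ± 0.23, adjusted p = 0.00227), Fbxo21, an F-box protein gene, by 2.37-fold (-1.29 ± 0.28, adjusted p = 0.0128), Pcsk4, a proprotein convertase gene, by 2.77-fold (-1.51 ± 0.31, adjusted p = 0.00911) and Pla2g12a, a secreted phospholipase gene, by 1.92-fold (-0.99 ± 0.21, adjusted p = 0.0109). The non-coding RNA genes Snhg12, a host of small nucleolar RNAs, at -0.94 ± 0.21 (adjusted p = 0.0211), and 2410006H16Rik, at -1.02 ± 0.20 (adjusted p = 0.00525), were lower too. The strand setting of the counting is not given, so reads of overlapping genes cannot be told apart. Without night-restricted replicate 2, Acer2 (0.109), Casp6 (0.0605), Neu1 (0.172), Pcsk4 (0.0744), Pla2g12a (0.125), Snhg12 (0.504) and 2410006H16Rik (0.183) missed the adjusted p of 0.05, and without night-restricted replicate 3 so did Npc1 (0.0606) and Fbxo21 (0.337). Without night-restricted replicate 1 the same held of Neu1, Pcsk4, Pla2g12a, Snhg12 and 2410006H16Rik (adjusted p up to 0.252), without incompletely adapted replicate 2 of Neu1, Snhg12 and Fbxo21 (0.0662, 0.0913 and 0.0662), without arrhythmic replicate 3 of Neu1 and Snhg12 (0.0685 and 0.0595), and without arrhythmic replicate 2 of Fbxo21 (0.0586).

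Each arrhythmic subgroup was then set against the same 3 night-restricted libraries, so these 2 comparisons are not independent. Arrhythmic feeding gave 14 called genes (0.11 percent; 9 higher, 5 lower) and the incompletely adapted group also 14 (0.11 percent; 5 higher, 9 lower). The first count was 1 without night-restricted replicate 2, 3 without arrhythmic replicate 2 and 7 without night-restricted replicate 1. The second was 0 without night-restricted replicate 1 or 2 or incompletely adapted replicate 2 or 3, 4 without incompletely adapted replicate 1 and 22 without night-restricted replicate 3. Ppp1r3b differed by 1.94 ± 0.34 in the arrhythmic group and 1.58 ± 0.33 in the incompletely adapted one, and Mid1ip1 by 1.95 ± 0.37 and 1.53 ± 0.36. On the lower side Acer2 differed by -1.10 ± 0.21 and -0.98 ± 0.21. Fasn was called in the arrhythmic group (2.67 ± 0.56, adjusted p = 0.0338) and not in the incompletely adapted one (1.92 ± 0.55, adjusted p = 0.17), and Elovl6 the other way round (1.77 ± 0.46, adjusted p = 0.115, against 2.33 ± 0.47, adjusted p = 0.0203). The direct test of incompletely adapted against arrhythmic feeding did not separate either of them, at -0.75 ± 0.53 for Fasn and 0.56 ± 0.44 for Elovl6.

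That direct test called 0 genes (0 percent) with edgeR and 0 with DESeq2, with 663 of 12712 genes at an unadjusted p under 0.05; without arrhythmic replicate 1 it called 5. Among the 46 genes called for the pooled groups, 2 were below that unadjusted p, Pla2g12a (-0.52 ± 0.25) and Cln8. Angptl8, an insulin-induced regulator of lipoprotein lipase, had 81.2, 86.4 and 19.2 CPM under arrhythmic feeding, 12.9, 32.1 and 27.8 CPM in the incompletely adapted group and 10.8, 13.9 and 12.4 CPM under night-restricted feeding. Arrhythmic replicates 1 and 2 were high and the third lay among the incompletely adapted libraries; the subgroup difference of -1.54 ± 0.52 was not called, and the pooled difference was 1.63 ± 0.48 (adjusted p = 0.177). With SEs of this size, the test does not show that the subgroups were alike.

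**Figure D4:**
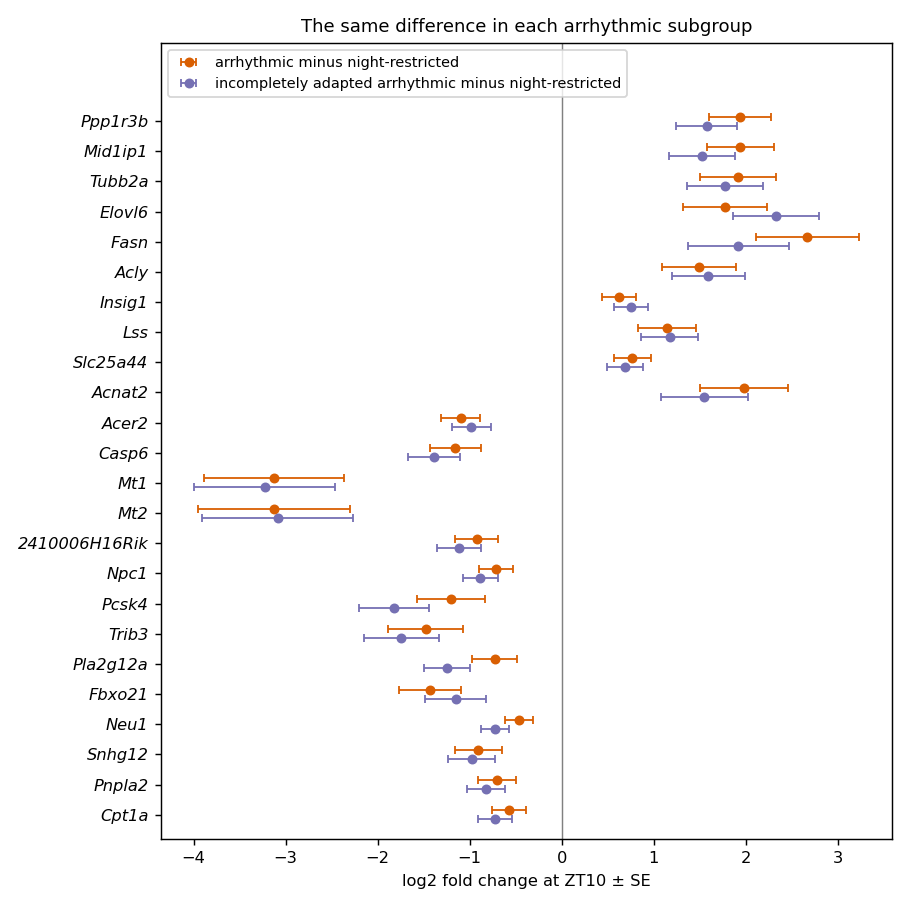
Fitted log2 fold change with its SE (horizontal bars) at ZT10 for each arrhythmic subgroup against the same night-restricted libraries, for 24 genes called in the pooled comparison. Genes were chosen by that pooled difference; Fasn shows a gap of -0.75 between the subgroups and Elovl6 one of 0.56, neither called.

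Whether the ZT10 difference was particular to that hour was tested against the mean of the same difference at ZT02, ZT06, ZT14, ZT18 and ZT22. It was called for 3 genes (0.0236 percent), Acer2 and Insig1 among them, with 710 at an unadjusted p under 0.05; without night-restricted replicate 2 it was called for 0, without night-restricted replicate 3 for 11, and without arrhythmic replicate 2 or 3 or incompletely adapted replicate 1 for 6, 5 or 7. For Insig1 the means under night-restricted feeding were 51.8 ± 9.83 CPM at ZT10 (SD, n = 3) and 109 ± 29 at ZT18, and in the arrhythmic groups 86 ± 14.7 and 61.1 ± 9.09 (SD, n = 6). At ZT06 they were 57.3 ± 11.4 and 105 ± 20.5 CPM. The night-restricted mean was thus the lower at ZT06 as well as at ZT10, and the higher at ZT18, and the ZT10 difference departed from the mean of the other times (0.93 ± 0.18, adjusted p = 0.0137). Acer2 had a single high time under night-restricted feeding, 29.6 ± 6.8 CPM at ZT10, against 14.9 ± 4.36 at ZT06 and 16.6 ± 0.291 at ZT14, and no such peak at ZT10 in the arrhythmic groups (13.5 ± 2.5, 14.9 ± 1.81 and 20.9 ± 4.69 at the same times; -1.16 ± 0.19, adjusted p = 0.00264).

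For Ppp1r3b and Fasn the excess over the mean of the other times was large but not called. It was 1.48 ± 0.32 (adjusted p = 0.0702) and 2.39 ± 0.55 (adjusted p = 0.076). That mean hides differences between times, and at ZT06 the arrhythmic mean was also the higher for both genes. For Fasn it was 3053 ± 852 CPM (SD) at ZT06, against 1088 ± 171 under night-restricted feeding. Under night-restricted feeding Ppp1r3b stood at 176 ± 82.6 CPM at ZT06, 287 ± 95.4 at ZT10 and 1610 ± 317 at ZT14, after lights off. The arrhythmic groups had 968 ± 258, 1001 ± 269.9 and 1467 ± 300.0 at these times. Mt1 under night-restricted feeding had its highest mean at ZT10 (274 ± 189.5 CPM), with 153 ± 98.7 at ZT06 and 23.2 ± 15 at ZT22, while the means of the pooled arrhythmic groups lay between 15.3 and 53.4 CPM at all times, with 47.1 ± 51.4 at ZT22 (SD, n = 6).

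**Figure D5:**
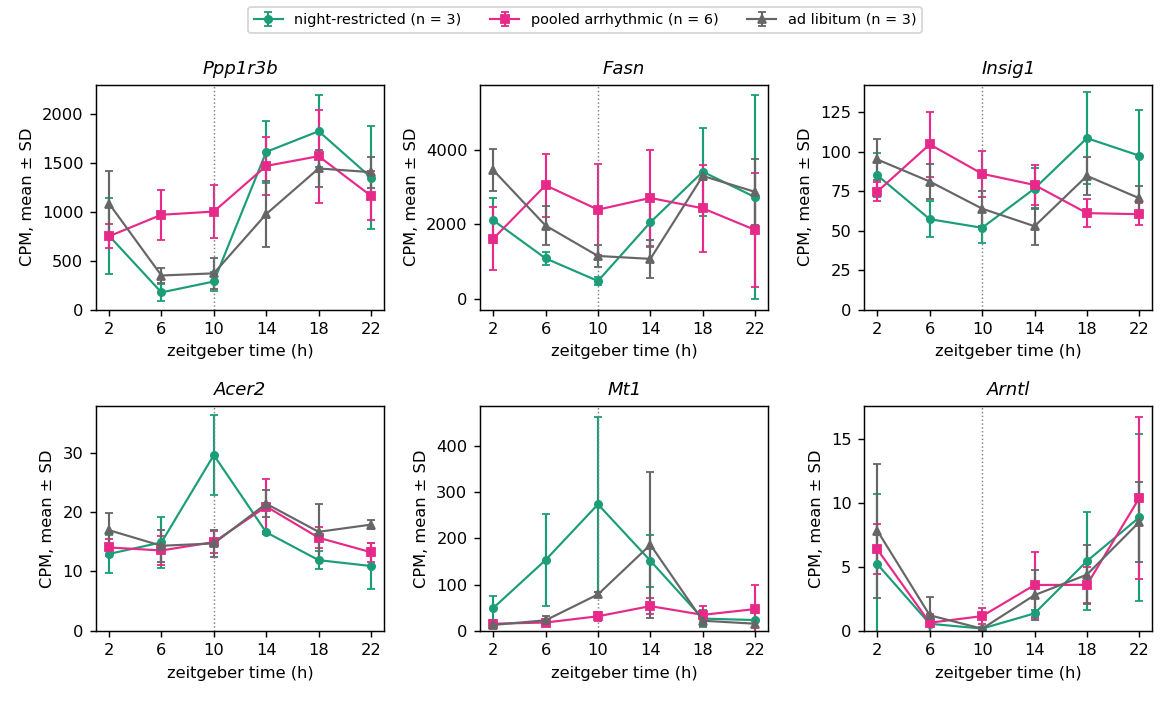
Mean CPM ± SD at the 6 times for 6 genes, under night-restricted (n = 3 at each time), pooled arrhythmic (n = 6) and ad libitum feeding (n = 3), with a dotted line at ZT10. At that line the night-restricted means of Ppp1r3b, Fasn, Insig1 and Arntl lie below the arrhythmic ones and those of Acer2 and Mt1 above.

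Ad libitum feeding, in which mice eat mostly but not only at night, gave reference values at the same hour. Against the same night-restricted libraries it called 0 genes with edgeR and 4 with DESeq2, with 539 at an unadjusted p under 0.05. Since both comparisons share the night-restricted libraries, only the values are set side by side. At ZT10 Ppp1r3b stood at 370.4 ± 156 CPM (SD, n = 3) under ad libitum feeding, 287 ± 95.4 under night-restricted feeding and 1001 ± 269.9 in the arrhythmic groups (SD, n = 6). Fasn stood at 1153 ± 294, 479.9 ± 116 and 2399 ± 1215 CPM in the same order. Mt1 stood at 78.8 ± 4.83, 274 ± 189.5 and 31.4 ± 10.1 CPM. The ad libitum means of these 3 genes lay between the other two. Acer2, at 14.7 ± 2.26 CPM under ad libitum feeding, lay instead at the arrhythmic level.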

How the data were processed

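The submitters made 3′ mRNA libraries (QuantSeq) from 2 µg of liver RNA, per the labels' protocols, and used STAR 2.4.2a with the mm10 or GRCm38.p5 build, per the submitters' processing notes. No label names the counting tool or its strand setting. Raw counts per gene were deposited and used as they stand, while the authors' table of normalized values was not used. Rows with no symbol held 0.0107 percent of counts. Genes were filtered with filterByExpr and fitted with edgeR 4.0.16 (TMM, robust quasi-likelihood) over all 72 libraries with 1 mean for each of 24 groups. SE is the size of the log2 fold change over the root of F. GC content was read over the last 500 bases of transcripts, and technical measures had an exact permutation test. Named genes were the 12 of smallest p in each direction (called, mean of at least 10 CPM, no overlap), the members of smallest p in each gene list, fixed defining genes, and those called against other times; a selection of these is printed, and some results are not reported here. Members and lists were chosen with earlier results of these data known. Alternatives were DESeq2 1.42.0, its size factors, no filter, ZT10 libraries alone, 1 pooled group, a replicate block, the GC slope, no libraries of extreme GC slope, and each library left out. The scripts were tested on simulated data.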

Additional observations from a re-analysis of the deposited data

Results flagged for a closer look

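Among the 51 genes examined for a library far from the rest of the 6 pooled arrhythmic ones, 4 had one, where chance flags about 1 group in 20. Cry1 stood at 12.4 CPM in arrhythmic replicate 1, with the other 5 libraries between 5 and 6.75 CPM. In arrhythmic replicate 2, Angptl4 stood at 327 CPM (others 132 to 163 CPM). In incompletely adapted replicate 1, Lss stood at 26.3 CPM (others 17.1 to 20.5 CPM) and Chordc1 at 80.5 CPM (others 40.5 to 51.6 CPM).

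The difference between arrhythmic and night-restricted feeding at ZT10 departed from its mean over the other 5 times in edgeR's test for Insig1 and Acer2, among others. The log2 departure was 0.93 for Insig1 and -1.16 for Acer2.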

How the results depend on the processing

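Of 51 genes examined under 17 alternatives each, the 24 called ones kept their direction throughout and 17 stayed called under at least 10. The count for both arrhythmic groups together (46) became 22 without the low count filter, 0 with the ZT10 libraries alone, 98 with the GC slope added, and 7 to 40 with 1 library left out. For arrhythmic feeding alone (14) these were 4, 0, 60 and 1 to 15, and 30 with DESeq2. For the incompletely adapted group (14) they were 7, 0, 38 and 0 to 22, and 45 with DESeq2. Between the subgroups the count was 0 to 5 with 1 library left out. Against the other times (3) it was 18 with DESeq2, 40 with the GC slope, 17 without the 5 libraries of extreme GC slope and 0 to 11 with 1 library left out. For ad libitum feeding (0) the counts were 4, 5, 3 and 0 to 5 in the same order. The cause of these changes was not tested, except that the ZT10 fit has fewer samples and the unfiltered fit more genes.

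Same-numbered libraries of different groups were not paired by the labels, and their deviations correlated from -0.367 to 0.555, with 4 of 9 pairs over 0.1, against -0.589 to 0.426 and 6 of 18 for other pairs. With a replicate block the counts were 27 for both groups together, 8 for arrhythmic, 4 for incompletely adapted, 0 between the subgroups and 3 against the other times.

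The difference changed sign for 4 genes that were not called, and the cause was not tested. Scd1 became 0.13 with the GC slope, 0.0063 without the extreme libraries and -0.16 to 0.071 with 1 library left out. Pck1, at 0.81 as reported, became -0.49 with the GC slope. Cyp4a14 ranged from -0.45 to 0.060, and Per2 became -0.36, -0.031 and -0.044 to 0.22 in the order given for Scd1. Genes at a few CPM, such as Arntl, are limited by depth.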

Other observations

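Of the genes called lower that belong to no gene list here, several are named after their values were seen, with no test of a shared theme. Cln8 encodes an ER protein needed for the export of lysosomal enzymes. Zfas1 is an RNA gene that hosts small nucleolar RNAs. Epb41l4aos and Zbtb11os1 lie opposite other genes, and since the strand setting of the counting is not given, their reads and those of the overlapping genes cannot be told apart. The rest were Clec2h, Gm10804, Exd1, Zmynd10, Wdr45b, Clmn, Ripor3, Lurap1l, B930025P03Rik, Stk17b and Pcbp4.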
